A study of Mus musculus with 2 samples.

Results

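The data described here are the array signals of 40 genes that lie beside Sox11 on mouse chromosome 12, in RNA labelled as cerebral cortex of 1 Sox11-null embryo (Sox11 -/-) and of 1 wild-type littermate (Sox11 +/+), both at E17.5, late in embryonic development. Both embryos came from a mating of Sox11 +/- parents on a mixed C57BL/6 and 129 background. The genes were chosen by position, with Sox11 itself left out, from a table of 18193 genes on the arrays. In the gene order of the RefSeq table, 28 members lie on the centromere side of Sox11, from Cmpk2 outwards to Trib2. The other 12 lie on the telomere side, from Allc outwards to Sh3yl1. Of the 40, 39 had at least 1 probe set that names no other gene, 95 probe sets in all. Rock2 had none and was not analysed here. With 1 array per genotype there is no replicate, no test and no p-value, and each difference is between 2 embryos as much as between 2 genotypes.

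Genes next to a mutated gene are of interest for reasons apart from the function of its protein. In a mouse with a targeted allele, DNA near the allele is inherited with it, so that on a mixed background the chromosome segment around the mutation can come from the strain in which the allele was made. Neighbouring genes can also share regulatory DNA, and removing or inserting sequence at 1 gene can alter the level of another. The labels do not say which strain the segment came from in either embryo. The array probes' sequences were not used, so whether a base that differs between C57BL/6 and 129 lies under a probe was not tested.

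The arrays were first checked at Sox11 and at markers of the tissue. All 6 Sox11 probe sets were lower in the null library, at 305.7 to 3149 against 1038 to 6582 in wild type, so that 16.4% to 47.8% of the wild-type signal was left. The labels do not say which of them lie in the deleted part, and a probe set outside it checks nothing. Cortical neuron markers were present and similar in both libraries, with all 7 measured markers within 1.5-fold and the transcription factor gene Neurod6 at 2723 in the null and 3019 in the wild-type library. Of 9 epidermis markers, 8 were measured and 6 were lower by 1.5-fold or more in the null library, and their summed signal was 20941 against 39628 in wild type. None of the 9 was at 0 (lowest signal 79.3). Skeletal muscle markers had a summed signal of 103009 in the null and 104534 in the wild-type library, so high signals of a tissue outside the cortex were in both. Of 6 measured radial glia markers 5 were within 1.5-fold and Hes5, a Notch target gene, was lower at 358 in the null library and 640 in wild type (-0.82). Of 3 measured microglia markers 2 were within 1.5-fold and the lysosomal protease gene Ctss was higher at 1381 in the null library and 876 in wild type (0.68). Both measured erythroid markers were within 1.5-fold, and none of the 3 kidney and liver markers with a probe set was measured (0). Fewer cells of a type and less RNA per cell cannot be told apart in such samples. For the beta-actin control, the 3' probe set over the 5' one gave a ratio of 1.16 in the null and of 1.78 in the wild-type library, and for the Gapdh control the ratio was 0.816 in the null and 0.922 in the wild-type library.

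A probe set is called measured below when either array gave it a signal at or above the array's own median (177.4 in the null and 177.5 in the wild-type library). This held for 70 of the 95 member probe sets, from 34 genes. A probe set that reached the median on only 1 array is higher on that array by construction, so this filter fixes its direction. A gene's brightest probe set, by mean log2 signal, stands for the gene, and differences are log2 null minus wild type, shifted so that the median over all measured genes is 0. Of the 34 measured genes, 1 was higher and 3 were lower in the null library by at least 1.5-fold (0.58 on the log2 scale), and 30 were within it. These 4 are 11.8% of the members, where 1 gene is 2.94%. Over all 12390 measured genes 6.3% differed by as much, 3.07% higher and 3.24% lower, and the share per chromosome ran from 3.56% to 8.15% over the 19 autosomes and the X. Of the measured members only Tmem18 differed by 2-fold and it was lower, as were 0.985% of all measured genes (1.56% either way). The median difference of the members was -0.094 (quartiles -0.22 and 0.036), beside -0.025 over 404 other measured genes of chromosome 12. Of the members 24 of 34 were below 0, beside 213 of those 404. That count was 22 of 34 when a gene's measured probe sets were averaged, and 18 or 19 of 30 when all its probe sets were. The members' median size of difference without sign was 0.15, beside 0.17 over all measured genes.

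**Figure D1:**
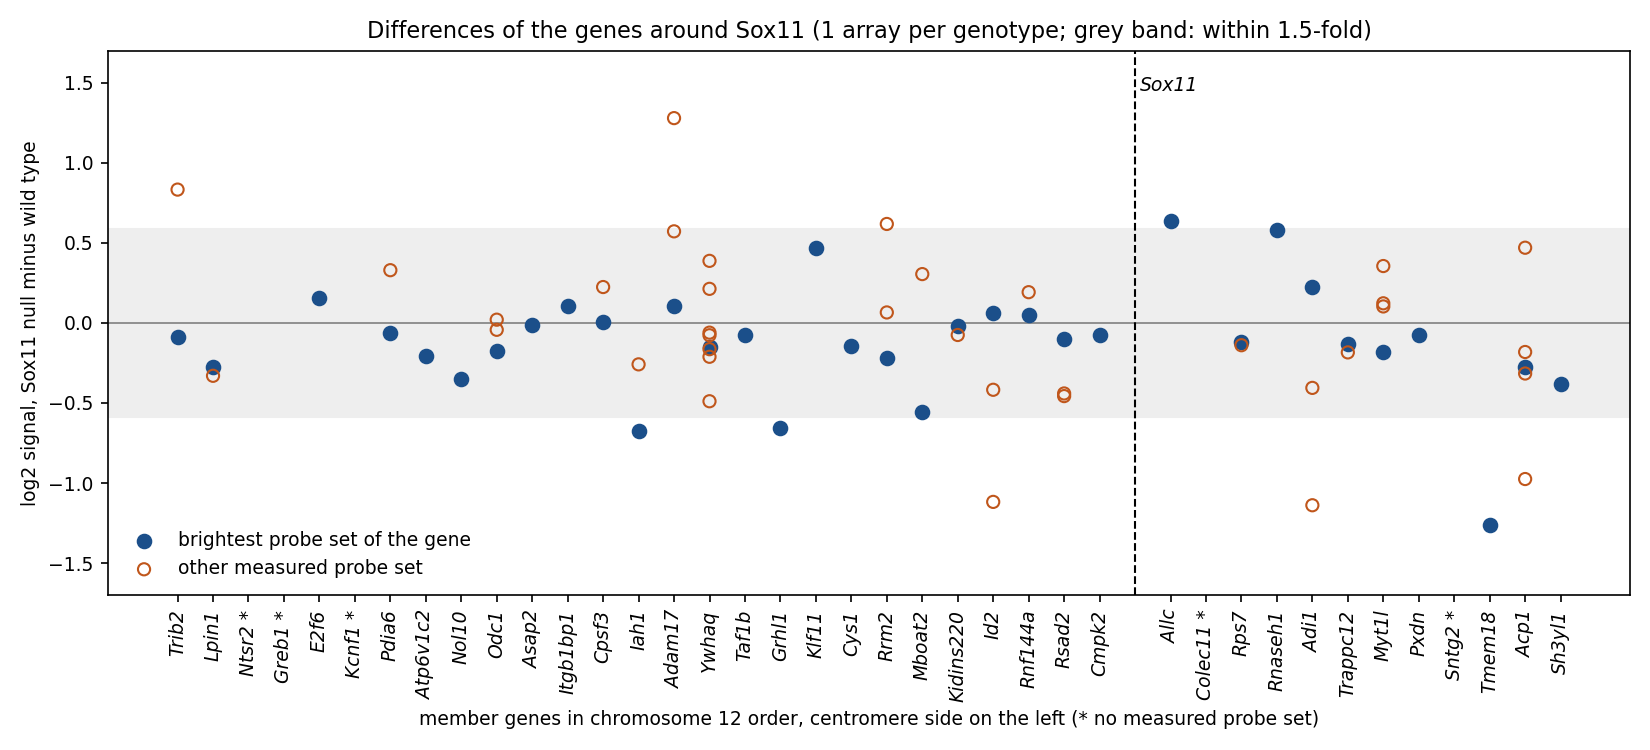
Log2 difference, Sox11 null minus wild type, of every measured member probe set (vertical axis), with the genes in chromosome 12 order and a dashed line at Sox11. Filled points are each gene's brightest probe set and open circles its other measured ones. Of the filled points 4 lie outside the grey 1.5-fold band, 2 on each side of Sox11, and 6 open circles do.

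Tmem18 had the largest difference of the 34. It encodes a membrane protein of the nuclear envelope, and variants near the human gene are associated with body weight. Its only probe set gave 277.04 in the null library and 673 in wild type, 2.40-fold lower (log2 difference -1.26). No other probe set could be set beside it. For scale, the central 95% of all probe sets in the same of 3 equal bands by level (mean signals of 383 to 926) had differences from -0.55 to 0.78.

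Allc was the only measured member higher by 1.5-fold in the null library. It encodes allantoicase, an enzyme of the breakdown of uric acid in many vertebrates. Its brighter probe set gave 223 in the null library and 145 in wild type, 1.56-fold higher (0.64). The dimmer one, below the median on both arrays, gave 83.5 and 61.4 and so had the same direction. Both signals of the brighter probe set lie near the array median, and only the null one reached it, so the filter fixed the direction. With low values raised to that median the difference was 0.35, inside 1.5-fold. Allc is also the member nearest to Sox11 on the telomere side.

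The bases before the start sites of Tmem18 and Allc are shown because these genes had the largest differences of the telomere side, 1 in each direction, and because Sox proteins bind short DNA motifs. The sequences are those of RefSeq, build GRCm38.p6, the C57BL/6J reference, and not those of either embryo. The 250 bases before each start are given 5' to 3' on the gene's strand, with matches to the Sox motif words ACAAAG or ACAATG on either strand in capitals. The windows lie at chr12:30584193-30584442 (plus strand, Tmem18) and chr12:28582529-28582778 (minus strand, Allc).
Tmem18: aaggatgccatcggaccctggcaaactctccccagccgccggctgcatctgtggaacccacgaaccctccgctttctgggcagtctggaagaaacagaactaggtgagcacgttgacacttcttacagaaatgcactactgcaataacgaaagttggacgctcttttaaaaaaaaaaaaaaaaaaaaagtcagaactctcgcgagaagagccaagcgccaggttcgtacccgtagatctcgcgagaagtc
Allc: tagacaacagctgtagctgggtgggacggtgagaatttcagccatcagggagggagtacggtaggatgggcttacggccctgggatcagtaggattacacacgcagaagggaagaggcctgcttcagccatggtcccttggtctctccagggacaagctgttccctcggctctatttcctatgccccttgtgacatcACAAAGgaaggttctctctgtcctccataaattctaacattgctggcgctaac
Allc holds 1 match, ACAAAG on the gene's own strand, starting 53 bases before the start site. Tmem18 holds none, and neither do the windows of Iah1 and Grhl1, the other 2 members beyond 1.5-fold. Of 44 windows of members 5 (11.4%) hold a match, and so do 25.2% of all 32851 windows of this length. The 2 words differ in their second-last base, so no place matches both. A match is a run of letters and not a binding site.

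Iah1 and Grhl1, both on the centromere side, were the other 2 lower genes. Iah1, whose yeast counterpart is an esterase that splits isoamyl acetate, gave 876 in the null library and 1418 in wild type, 1.60-fold lower (-0.68). Its other measured probe set, of nearly the same brightness, gave 942 and 1143, a difference of -0.26 that is within 1.5-fold. The remaining one, not measured, pointed the other way at 138 in the null library and 44.4 in wild type. Averaged with both, the Iah1 difference was 0.20 where signals were averaged before low values were raised and 0.12 where each probe set was raised first. Averaged over the 2 measured probe sets it was -0.50, so its place beyond 1.5-fold rests on 1 probe set.

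Grhl1 encodes a grainyhead-like transcription factor of surface epithelia, where it is known for a part in cell adhesion. Its 1 probe set gave 275 in the null library and 441 in wild type, 1.58-fold lower (-0.66). Most of the epidermis markers counted above were lower in the same library, led by the desmosomal cadherin gene Dsc1 (253 and 1130, -2.14), Krt10 (3229 and 10189, -1.64) and Ivl (105 and 295, -1.47). Ivl reached the array median only in wild type, so the filter fixed its direction. The basal keratin gene Krt5 was at 0.11. The part of epidermal RNA in the Grhl1 difference was not tested.

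The members nearest to the 1.5-fold line show how thin it is. Rnaseh1, which encodes a nuclease that cuts the RNA of RNA-DNA hybrids, gave 430.2 in the null library and 292 in wild type by its 1 probe set, 1.49-fold higher (0.58, just inside). Mboat2, an acyltransferase gene of phospholipid remodelling, was at 562 against 838 with its brighter probe set (-0.56) and at 513 against 421 with its other one (0.30). Removing the trend with level moved the first value to -0.59. Klf11, a Krüppel-like transcription factor gene, followed at 859 in the null library and 630 in wild type (0.47).

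Probe sets of the same member often disagreed. Several measured probe sets were available for 19 genes, 55 in all. In 9 of the 19 (47.4%) all of them lay on the same side of 0, where 43.2% of 5155 genes of the arrays did. In 8 (42.1%) the highest and the lowest difference were 1.5-fold or more apart, beside 33% of those 5155. In 7 members (36.8%) at least 1 probe set was beyond 1.5-fold, beside 27.4%, and in none were all of them, beside 0.81%. The pooled SD of the differences within a gene was 0.39 in the members and 0.39 over all genes. Probe sets of a gene share the same 2 RNA samples and are not replicates.

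Counted by probe set, 4 of the 70 measured ones were 1.5-fold higher in the null library and 6 were lower, which is 14.3%, beside 10.7% of all 20669 measured single-gene probe sets (7.26% higher and 3.48% lower). The 10 belong to 10 genes, and 6 of them are dimmer probe sets of a gene whose brightest one is within 1.5-fold. Those of Adi1, Id2, Adam17 and Allc reached the array median only where they were higher, so the filter fixed their direction. All 10 are among the 54 measured member probe sets of other types than _s_at and _x_at, and none is among the 16 of those types. The shares by type over all probe sets were not counted, so this is no trait of the members. The mean signals of the 10 ran from 179.8 to 1114 with a median of 388, and the 60 within 1.5-fold had a median of 944. Of the 19 member probe sets in the lowest of the 3 bands by level 5 were beyond 1.5-fold, of 20 in the middle band 4, and of 31 in the highest band 1. Over all genes these shares were 20.4%, 8.17% and 3.60%. Against the central 95% of differences in their own band, 9 member probe sets (12.9%) lay outside, 7 lower and 2 higher, where the construction places 5.02% of all probe sets.

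**Figure D2:**
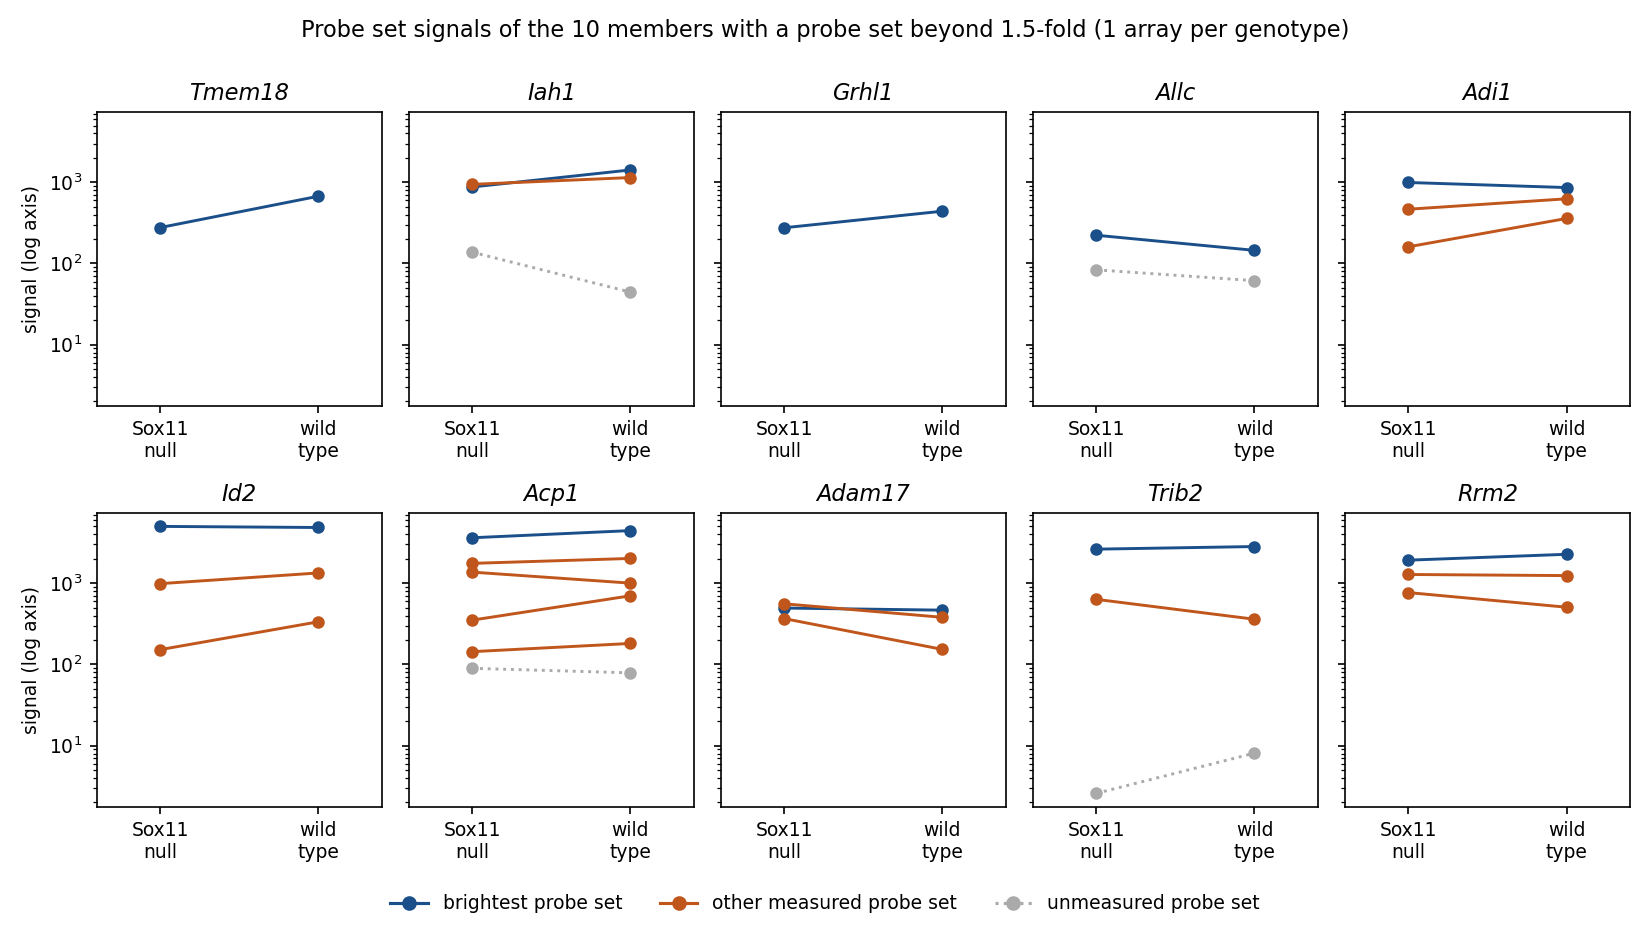
Signal on the null array (left) and the wild-type array (right) of every probe set of the 10 members with a measured probe set beyond 1.5-fold, on a log axis. Lines of 1 gene that slope in different directions are probe sets that disagree, as in Adi1, Id2, Acp1, Trib2 and Rrm2, and a lone line, as for Tmem18 and Grhl1, has no second probe set.

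The widest disagreement was in Acp1, which encodes a low-molecular-weight protein tyrosine phosphatase. Its brightest probe set gave 3631 in the null library and 4446 in wild type (-0.27) and the next one 1756 and 2019 (-0.18). The others gave 1370 against 1003 (0.47), 351 against 700.2 (-0.98) and 144 against 181 (-0.32). Thus 4 of 5 measured probe sets were lower in the null library, and only 1 of them, at -0.98, was so by 1.5-fold. The dimmest of the 5 reached the array median only in wild type, so the filter fixed its direction. A further probe set, not measured, pointed the other way at 89.6 in the null library and 78.8 in wild type.

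Adi1, an enzyme gene of the methionine salvage pathway, was next. Its 3 probe sets gave 994 in the null library against 861 in wild type (0.23), 466 against 626 (-0.41) and 161 against 358 (-1.14). The brightest and the dimmest were thus in opposite directions, and the 2 brighter ones are of the _x_at type, whose probes can also match other transcripts. Without such probe sets the gene was at -1.15, by the dimmest alone. That probe set reached the array median only in wild type, so the filter fixed its direction. Of the 6 measured genes of the same pathway in a list of 7, none was beyond 1.5-fold, with a median of 0.023.

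Id2 encodes an inhibitor of basic helix-loop-helix transcription factors, among which are factors that drive neuronal differentiation. Its brightest probe set gave 5010 in the null library and 4856 in wild type (0.065), the next 988 and 1338 (-0.42), and the dimmest 152 and 335 (-1.12). The dimmer the probe set, the lower it was in the null library. The dimmest reached the array median only in wild type, so the filter fixed its direction. With its brightest probe set Id2 was well within 1.5-fold.

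In 3 members the outlying probe set was higher in the null library. Adam17, the protease that releases tumour necrosis factor and other membrane-bound ligands, gave 495 in the null library and 466 in wild type (0.11), 558 and 380 (0.57), and 367 and 153 (1.28). All 3 had the same direction, and averaged over them the gene was at 0.62, beyond 1.5-fold, although the brightest alone was not. The dimmest reached the array median only in the null library, so the filter fixed its direction. Trib2, a pseudokinase gene, gave 2628 and 2830 (-0.087) and 633 and 360.3 (0.83), and the brighter one is of the _s_at type, which can match several transcripts. Rrm2, the small subunit of ribonucleotide reductase that makes deoxynucleotides in S phase, gave 1924 and 2271 (-0.22), 1282 and 1242 (0.065), and 767 and 507 (0.62). Where these probe sets lie along the transcripts was not used here. The 3' to 5' ratios of the actin and Gapdh controls differed between the libraries, as given above, and its part in these disagreements was not tested.

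Other members had the same direction with each measured probe set. Rps7, a protein of the small ribosomal subunit and the brightest member, gave 20434 in the null library and 22526 in wild type (-0.12) and 20040.3 and 22379 (-0.14). A further probe set that it shares with the pseudogene Gm7285 gave 16906 and 17498. All 10 measured genes of the small subunit list were also below 0, with a median of -0.17. These directions turn with the scaling: Rps7 was at 0.071 with quantile normalization and at 0.031 with the trend with level removed, and 7 and 4 of the 10 list genes were then above 0. Lpin1, a phosphatidate phosphatase, gave -0.28 and -0.33, Trappc12 of the vesicle tethering TRAPP complex -0.13 and -0.18, and Kidins220, a scaffold of neurotrophin receptors, -0.018 and -0.075. Rnf144a, a ubiquitin ligase gene, gave 0.047 and 0.19, and Cpsf3, the nuclease of messenger RNA 3' end formation, 0.0033 and 0.22. The smallest of these values also turned with the scaling, Kidins220 to 0.059 with quantile normalization and 0.060 with the trend removed, and Cpsf3 to -0.017 without centring, -0.0090 with quantile normalization and -0.0049 with the trend removed.

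Ywhaq, which encodes the 14-3-3 theta adaptor, had the most probe sets. The 8 ran from 4711 to 12321 in the null library and from 3651 to 13859 in wild type, with differences from -0.49 to 0.39, all within 1.5-fold. Of these, 6 were below 0. Odc1, which makes putrescine as the first step of polyamine synthesis, gave -0.18, -0.043 and 0.020. All 9 measured genes of the polyamine list were within 1.5-fold, with a median of 0.0011.

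Rsad2 and Cmpk2, which lie head to head nearest to Sox11 on the centromere side, are induced by interferon and act against viruses. Rsad2 was lower in the null library with each of 3 probe sets, at 355 against 386 (-0.10), 178 against 247 (-0.46) and 142 against 196 (-0.44). The last of these reached the array median only in wild type, so the filter fixed its direction. Cmpk2 gave 312 in the null library and 334 in wild type (-0.078), while a probe set below the median on both arrays gave 151 and 97.3. None of these measured values was beyond 1.5-fold. Of 20 listed interferon-stimulated genes 9 were measured, 3 of them 1.5-fold lower and 1 higher in the null library, with a median of -0.23. These are 44.4% of the 9, beside 6.3% of all measured genes. The 9 were dim, with median signals of 239 in the null and 365 in the wild-type library, beside 722 and 715 over all measured genes. With no filter 7 of 17 were above and 10 below 0, with a median of -0.082. With the filter at the 75th percentile none was measured (0). Xaf1 was the lowest, at 118 against 439 (-1.88), Rtp4 was at -0.66 and Ifih1 at -0.64, and Stat2 lay at the line at 0.59. Of these only Rtp4 reached the median on both arrays.

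The neuronal regulator Myt1l, a zinc finger factor that represses non-neuronal genes, gave 2265 in the null library and 2600 in wild type (-0.18) and 1991 and 1879 (0.10) with its bright probe sets. Its dimmer measured ones were at 0.36 and 0.12. The collagen IV crosslinking enzyme gene Pxdn gave 4064 and 4334 (-0.073). Sh3yl1, a phosphoinositide-binding adaptor gene at the telomere end, gave 908 and 1197 (-0.38). The centromere-side genes Pdia6 (protein folding in the endoplasmic reticulum), E2f6 (a repressor of the E2F family), Asap2 (an Arf GTPase activator), Itgb1bp1 (an integrin-binding protein) and Taf1b (RNA polymerase I initiation) had differences from -0.072 to 0.15 with their brightest probe sets. The other measured probe set of Pdia6 gave 235 in the null library and 190 in wild type (0.33), against -0.065 with its brightest. Nol10 of the nucleolus (-0.35), Atp6v1c2 of the proton pump (-0.21) and Cys1 of the cilium (-0.14) were also within 1.5-fold. The 1 probe set of Nol10 gave 159 in the null library and 206 in wild type. It reached the array median only in wild type, so the filter fixed its direction. With low values raised to the median it was at -0.20.

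For 5 members no probe set was measured, and no fold is given. The brightest probe set of the estrogen-induced gene Greb1 gave 67.02 in the null library and 88.2 in wild type, and its 4 probe sets differed in direction, 1 of them at 101 against 18.3 and another at 47.7 against 90.6. The potassium channel subunit gene Kcnf1 gave 125 and 111, the neurotensin receptor gene Ntsr2 133 and 138, the collectin gene Colec11 69.9 and 61.5, and the syntrophin gene Sntg2 53.4 and 44.1. All lay below the array medians. In 8 of the 25 unmeasured member probe sets, both signals were below the 25th percentile of their arrays (52.5 and 52.9). Unmeasured probe sets of members with a brighter one were at 95.4 in the null library and 160 in wild type for Trappc12, at 72.4 and 126 for E2f6, at 95.5 and 53.4 for Kidins220 and at 12.4 and 62.3 for Rnf144a. None of these dim values is counted above, except where all probe sets of a gene were averaged.

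**Figure D3:**
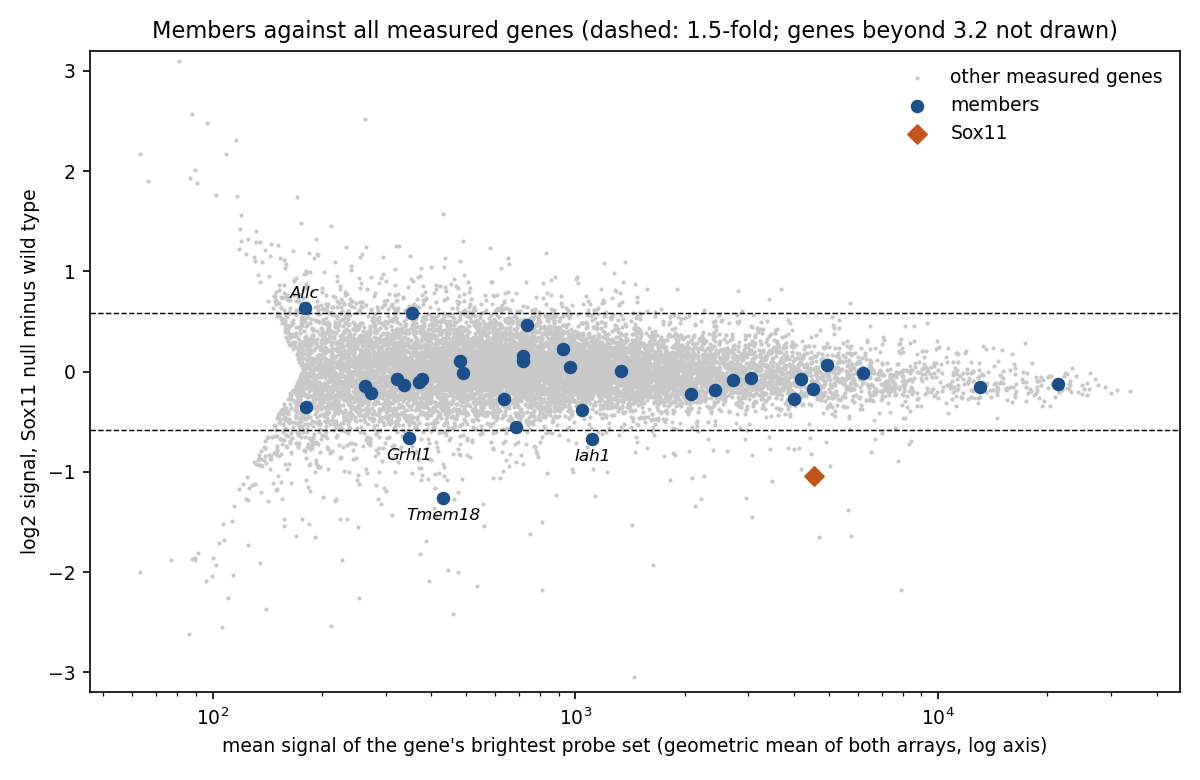
Log2 difference, Sox11 null minus wild type, against mean signal of each measured gene by its brightest probe set, with the 34 members in blue, all other measured genes in grey and Sox11 as a diamond. The members spread through the grey cloud, and Tmem18 stands farthest from 0 among them at -1.26.

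Members beyond 1.5-fold lay on both sides of Sox11, 2 on each. On the centromere side 2 of 24 measured members were beyond 1.5-fold, both lower, with a median of -0.082. On the telomere side 1 of 10 was higher and 1 lower, with a median of -0.12. Of the 14 members nearest to Sox11 on the centromere side 2 were beyond 1.5-fold, against none of the 10 measured among the 14 farther ones, and the medians were -0.090 and -0.076. Between the outermost members lie 43 further coding genes other than Sox11, and 6 of them were measured. Of these, 5730507C01Rik was lower, at 96.4 in the null library and 187 in wild type (-0.94). It reached the array median only in wild type, and was at -0.056 with low values raised to the median. The other 5 were within 1.5-fold with their brightest probe sets, where 6.3% of all measured genes were beyond it. Another measured probe set of Eipr1 gave 135 in the null library and 238 in wild type (-0.80), against 0.13 with its brightest. It too reached the median only in wild type.

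Adjacent members were compared by their orientation, since genes that start back to back can share a promoter region. Both genes were measured in 20 pairs of adjacent coding genes, and the differences had the same sign in 13. This count was 8 of 20 with the mean over measured probe sets. Of 5 head-to-head pairs 5 had the same sign, but 4 did without centring, with quantile normalization, with the trend removed, without the _s_at and _x_at types and with the mean over measured probe sets. The 5 include Acp1 with Sh3yl1 (-0.27 and -0.38), Atp6v1c2 with Nol10 (-0.21 and -0.35) and Itgb1bp1 with Cpsf3 (0.11 and 0.0033). Nol10 reached the array median only in wild type, so the filter fixed its direction, here and in its same-sign pair with Odc1. Of 4 tail-to-tail pairs 1 had the same sign, and 2 with quantile normalization or with the trend removed. Over all 5838 such pairs of the genome the share with the same sign was 50.1%, and 49.2% of 1631 head-to-head and 50.9% of 1486 tail-to-tail pairs. Iah1 and Adam17 overlap tail to tail in the RefSeq table and had opposite signs (-0.68 and 0.11), and how the array's probe sets lie in the overlap was not used here.

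Genes related to the members elsewhere in the genome gave a further comparison. Of 46 listed paralogues 37 were measured, and 2 (5.41%) were beyond 1.5-fold, with a median of 0.021. These were E2f1, higher at 377 in the null library and 173 in wild type (1.14), and the neurotensin receptor gene Ntsr1, lower at 158 and 282 (-0.82). Each reached the array median only where it was higher, so the filter fixed its direction. All 12 measured genes each of the TRAPP and of the endoplasmic reticulum folding lists were within 1.5-fold, with medians of 0.026 and 0.029. In the deoxynucleotide and S phase list, Mcm2 (0.82) and Tk1 (0.69) were higher and the other 8 measured genes were within 1.5-fold, with a median of -0.021.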

How the data were processed

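Each genotype was hybridised to 1 Affymetrix array as biotinylated cRNA, per the labels' protocols. The authors deposited 1 linear signal intensity per probe set. Affymetrix Expression Console is named in the submitters' processing notes, with algorithm, version and filters not given in the sources used here. After trimming 2% at each end both arrays had a mean of 500.002, as scaling to a common target gives. Having 1 array per group limits the precision.

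Of 45101 probe sets 64 are controls, 34945 name 1 gene, 932 several and 9160 none in the platform annotation. A RefSeq table gave current symbols by gene number (GRCm38.p6, 34741 matched), and the gene order. Log2 signals of the null array were shifted (by -0.020, subtracted), values below each array's 25th percentile were raised to it, and genes or probe sets were counted at 1.5-fold and 2-fold. Besides the filter and the floor above, 9 alternatives were tried and 2 more were added after seeing the data. The script was tested on simulated data. Python 3.11.15, pandas 2.3.3, NumPy 2.4.6 and statsmodels 0.14.6 were used.

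The members and the lists were chosen with earlier results of these data known. All members were to be named, with Sox11, the measured coding genes between members beyond 1.5-fold and up to 3 genes of each list beyond 1.5-fold each way. Krt5, Neurod6 and Eipr1 were named besides, after their values were seen.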

Additional observations from a re-analysis of the deposited data

How the results depend on the processing

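The median difference of the members stayed below 0 in every alternative, from -0.14 (mean over all probe sets) to -0.069 (quantile normalization). The differences of Tmem18 and Grhl1 stayed beyond 1.5-fold lower in all 11 alternatives, the 2 added ones included, although Grhl1 did not pass the filter at the 75th percentile. With the floor at the array median no member was 1.5-fold higher (0, against 1) and 1 telomere-side member was beyond 1.5-fold (against 2). With the filter at the 75th percentile 22 members were left, with 0 genes higher, 1 beyond 1.5-fold on each side of Sox11, 2 probe sets higher and 3 lower, and 3.61% of all measured genes beyond 1.5-fold. With no filter 8 member probe sets were higher and 9 lower. With the mean over all probe sets, unmeasured ones included and averaged before low values were raised, 2 genes were higher, 4 centromere-side and 1 telomere-side members were beyond 1.5-fold, and Iah1 was at 0.20, the opposite direction. With each probe set raised to the floor before averaging, an alternative chosen after seeing the data, 1 gene was higher, 2 centromere-side and 1 telomere-side members were beyond 1.5-fold, and the Iah1 difference was 0.12. Without the _s_at and _x_at types 2 members were higher and 4 lower. With the mean over measured probe sets, also chosen after seeing the data, 2 were higher and 2 lower. Of 374 values of the 34 measured members under alternatives, 15, from 9 genes, changed sides of the 1.5-fold line. No other cause was tested. No paired analysis was possible because each genotype has 1 array and no test was run. Low signals limit the dim probe sets, whose distance from background is not known without detection calls.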
